A study of Mus musculus with 8 samples.

Results

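The signal of 10 genes of blood vessel endothelium was examined in sorted Sca1+Lin- bone marrow cells, which carry the surface protein Sca1 and lack markers of mature blood lineages. The genes were Plvap, Emcn, Kdr, Eng, Cdh5, Pecam1, Tie1, Stab2, Egfl7 and Robo4. They were taken by name, with every probe set that the platform annotation gives to 1 of them, which made 15 of the 45037 probe sets tested and 10 of the 18193 genes. The series holds 5 arrays of Sca1-MALT1 transgenic mice and 3 arrays of wild-type (WT) mice. The transgene name joins Sca1, whose promoter is active in blood stem cells, with MALT1, which relays antigen receptor signals to NF-kB. The labels do not say which species its MALT1 comes from, and the mouse Malt1 probe set differed by 0.49 (SE 0.22, limma adjusted p = 0.507), which checks the labels neither way. Sca1 itself (Ly6a) was not analysed here. RNA of all 8 samples was amplified by in vitro transcription before labelling. The labels give no strain, age, sex, batch or transgenic line, and do not name the lineage antibodies. Nor do they tell whether each sample was a separate animal. The p-values therefore rest on sample-to-sample spread that may be technical.

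Endothelial cells line blood vessels, and in bone marrow they form arterioles and wide, leaky sinusoids beside which blood stem cells live. They respond to vascular endothelial growth factor (VEGF) and to angiopoietins through receptor kinases, hold together through VE-cadherin and PECAM-1, and clear material from blood through scavenger receptors. Sca1 itself is present on part of the mouse endothelium as well as on blood stem cells. Several of the 10 genes are also known from mouse blood cells: Eng, Emcn, Robo4, Tie1 and Egfl7 from stem or progenitor cells, and Pecam1 from platelets and many leukocytes. In bulk RNA, fewer cells of a type and less RNA per cell cannot be told apart.

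Values are log2 signals of the deposited robust multi-array average (RMA) table, 1 probe set with the highest mean standing for each gene unless stated. Array medians lay between 6.40 and 6.48, and r between any pair of arrays was 0.956 to 0.983 over all genes. RMA gives no detection call, so signals near or below these medians may be background, and levels cannot be compared from gene to gene. The group mean lay below the lowest array median for 4 of the 10 genes in Sca1-MALT1 (Emcn, Cdh5, Pecam1 and Tie1) and for 2 in WT (Emcn and Pecam1). Folds are given only where both group means exceeded the array medians. For the other endothelial genes listed beside these 10, the mean lay below the lowest array median in 21 of 48 in Sca1-MALT1 and 18 of 48 in WT. Over all genes these numbers were 6669 and 6765 of 18193.

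Of the 10 endothelial genes, 9 had a lower mean in Sca1-MALT1 than in WT, and Pecam1 differed by 0.00. The median log2 difference (Sca1-MALT1 minus WT) of the 10 genes was -0.98, against 0.0040 over all genes, of which 49.3% had a difference below 0. None of the 10 passed limma's test at an adjusted p of 0.05 over all genes, where 0.0879% of genes passed in either direction and 0.044% lower. At an unadjusted p under 0.05, 7 of the 10 were lower and none higher, against 4.49% of all genes lower and 10.2% in either direction. In 4 of the 10 (Plvap, Emcn, Kdr and Eng) every Sca1-MALT1 array lay below every WT array, against 2.87% of all genes. Since the genes were chosen with earlier results of these data known, these counts describe them and do not test them.

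**Figure D1:**
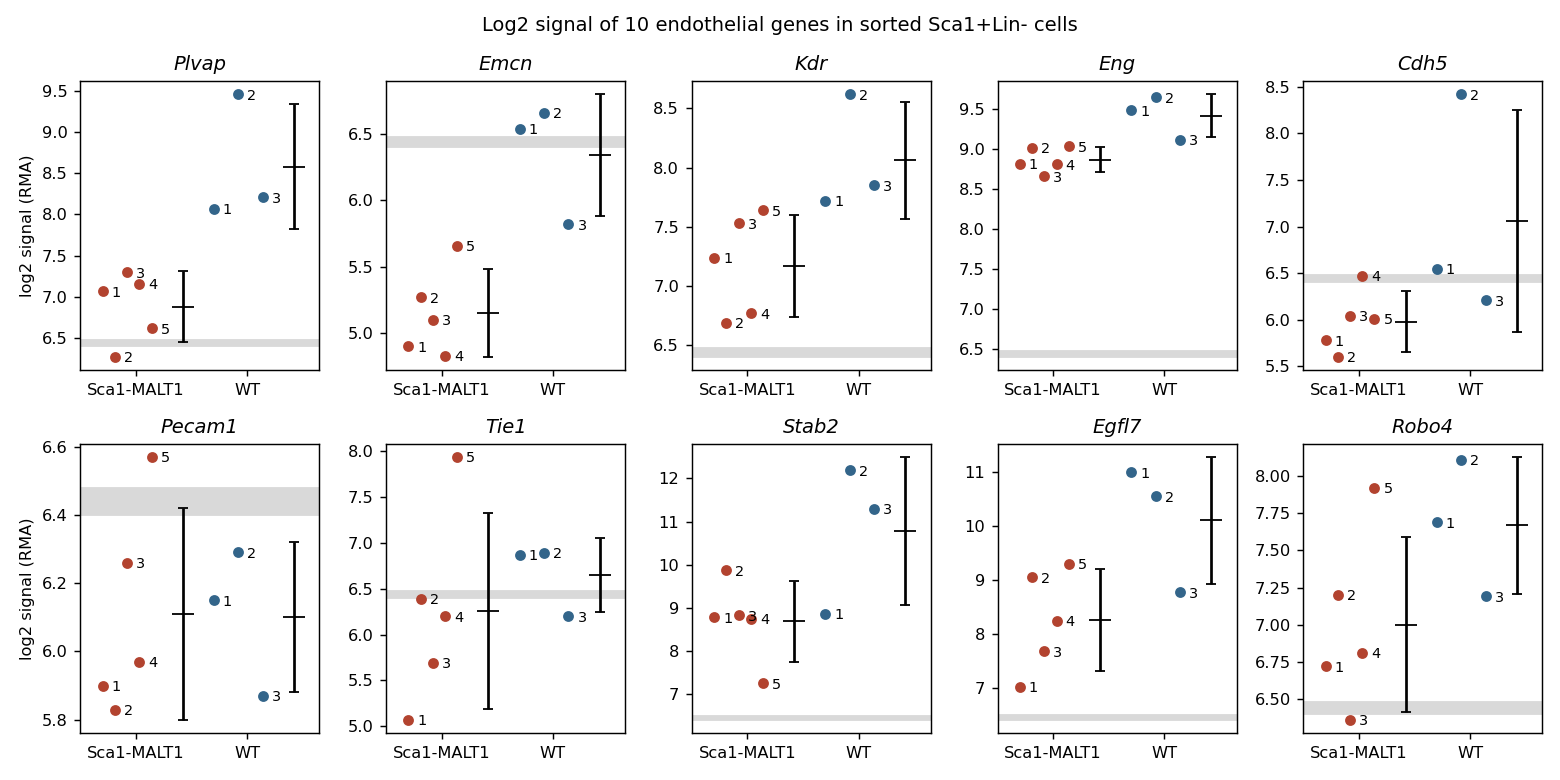
Log2 signal of each of the 10 endothelial genes by array, with Sca1-MALT1 arrays in red on the left and WT arrays in blue on the right of each panel, numbered by replicate. Black bars are means ± SD (n = 5 and n = 3), the grey band is the range of array medians (6.40 to 6.48), and each panel has its own y axis. The groups are apart in Plvap, Emcn, Kdr and Eng, and overlap in the other genes.

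Plvap encodes the protein of the diaphragms that span the pores of fenestrated endothelium. Its signal was 7.07, 6.27, 7.30, 7.16 and 6.62 in the Sca1-MALT1 arrays 1 to 5, and 8.07, 9.46 and 8.21 in the WT arrays 1 to 3. All Sca1-MALT1 arrays were below all WT arrays, with WT 2 standing above WT 1 and WT 3. The means were 6.88 ± 0.43 (SD, n = 5) in Sca1-MALT1 and 8.58 ± 0.76 (n = 3) in WT, a log2 difference of -1.69 (SE 0.36, 3.24-fold lower, limma adjusted p = 0.209). An exact permutation test, two-sided and over all 56 splits of the 8 arrays, gave p = 0.0179, the smallest that this design can give. Such exact tests were run for each of the 10 genes and are given unadjusted.

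Emcn encodes endomucin, a sialomucin of capillary and venous endothelium that is also carried by mouse blood stem cells. Its signal was 4.90, 5.27, 5.10, 4.83 and 5.66 in the Sca1-MALT1 arrays, and 6.54, 6.66 and 5.82 in the WT arrays. The groups did not overlap, but the highest Sca1-MALT1 array (5) and the lowest WT array (3) were close. The log2 difference was -1.19 (SE 0.25, limma adjusted p = 0.209, exact permutation p = 0.0179). All 5 Sca1-MALT1 values and that of WT 3 were below the array medians, so whether these signals exceed background is not known.

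Kdr encodes VEGF receptor 2, the main signalling receptor for VEGF-A on endothelium. Its signal was 7.24, 6.69, 7.53, 6.77 and 7.64 in the Sca1-MALT1 arrays, and 7.72, 8.62 and 7.85 in the WT arrays. The groups did not overlap, although Sca1-MALT1 5 came close to WT 1. Kdr differed by -0.89 on the log2 scale (SE 0.29, 1.85-fold lower, limma adjusted p = 0.377, exact permutation p = 0.0357).

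Eng encodes endoglin, a co-receptor for ligands of the bone morphogenetic protein (BMP) and TGF-beta family. Its signal was 8.82, 9.02, 8.66, 8.81 and 9.04 in the Sca1-MALT1 arrays, and 9.49, 9.65 and 9.12 in the WT arrays. The groups did not overlap, and Eng had the smallest spread of the 10 genes, with a pooled within-group SD of 0.20. Eng differed by -0.55 on the log2 scale (SE 0.15, 1.46-fold lower, limma adjusted p = 0.309, exact permutation p = 0.0179). A second Eng probe set read 7.28, 8.63, 7.79, 8.32 and 9.02 in the Sca1-MALT1 arrays, and 9.11, 8.93 and 8.39 in the WT arrays. It differed by -0.60 (SE 0.38, limma adjusted p = 0.672 over all probe sets), with overlapping groups.

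The sequences before the starts of Emcn, Kdr and Eng are shown because their signals were apart between the groups, and that of Stab2 because it had the largest difference of the 10 genes. RefSeq windows of GRCm38.p6 were given for 7 of the 10 genes (9 windows, 3 of them of Egfl7), and none for Plvap, Cdh5 and Pecam1. Each run below holds the 250 bases before the start, 5′ to 3′ on the gene's strand, with AGGAAG or its reverse complement CTTCCT in capitals. These letters extend the GGAA core that ETS factors, a family active in endothelium and blood, bind.
Emcn, chr3:137340828-137341077, plus strand: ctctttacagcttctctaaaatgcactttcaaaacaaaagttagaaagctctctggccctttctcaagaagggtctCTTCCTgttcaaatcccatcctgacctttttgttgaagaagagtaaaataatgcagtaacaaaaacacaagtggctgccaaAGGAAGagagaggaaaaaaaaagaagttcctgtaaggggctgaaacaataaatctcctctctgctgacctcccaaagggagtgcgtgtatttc
Kdr, chr5:75978456-75978705, minus strand: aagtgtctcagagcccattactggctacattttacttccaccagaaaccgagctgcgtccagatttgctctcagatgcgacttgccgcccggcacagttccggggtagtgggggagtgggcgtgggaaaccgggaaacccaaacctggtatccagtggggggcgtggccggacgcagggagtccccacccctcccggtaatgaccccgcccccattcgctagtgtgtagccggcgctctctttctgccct
Eng, chr2:32646345-32646594, plus strand: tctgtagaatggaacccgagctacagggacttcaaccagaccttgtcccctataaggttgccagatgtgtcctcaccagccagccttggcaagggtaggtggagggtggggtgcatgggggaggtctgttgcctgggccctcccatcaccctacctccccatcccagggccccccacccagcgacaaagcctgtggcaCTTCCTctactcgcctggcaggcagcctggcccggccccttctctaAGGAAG
Stab2, chr10:87007943-87008192, minus strand: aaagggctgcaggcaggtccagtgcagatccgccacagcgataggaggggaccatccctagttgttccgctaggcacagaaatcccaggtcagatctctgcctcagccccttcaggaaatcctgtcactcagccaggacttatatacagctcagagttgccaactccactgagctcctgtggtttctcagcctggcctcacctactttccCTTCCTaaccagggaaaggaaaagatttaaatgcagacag
AGGAAG stood on either strand in 7 of the 9 windows, against 29.5% of all 32851 RefSeq windows of this length. Counted by gene, AGGAAG stood in at least 1 window of 6 of the 7, and no share by gene was made for all windows. It occurred 2 times each in the Emcn and Eng windows, 1 time in that of Stab2 and not in that of Kdr, whose window held GGGCGG, the GC box, 2 times over both strands. Of the 4 motifs searched, each on both strands, GGGCGG stood in 2 of the 9 windows, against 32.7% of all windows. AGATAA, bound by GATA factors, stood in none of the 9, against 9.99% of all windows. The TATA box letters TATAAA likewise stood in none, against 12.4% of all windows. None of the 4 motifs contains another. A match describes the letters and does not show a binding site, and the absence of one says nothing about the factor.

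Cdh5 and Pecam1 encode junction proteins, VE-cadherin of endothelial adherens junctions and the adhesion molecule PECAM-1 (CD31). Cdh5 read 5.78, 5.60, 6.04, 6.47 and 6.01 in the Sca1-MALT1 arrays, and 6.55, 8.42 and 6.21 in the WT arrays. The groups overlapped, WT 2 stood far above the other 7 arrays, and the signal was below the array's own median in 5 of the 8. Cdh5 differed by -1.08 on the log2 scale (SE 0.46, limma adjusted p = 0.483, exact permutation p = 0.0357), and -0.40 without WT 2. The second Cdh5 probe set lay between 4.17 and 4.43 in Sca1-MALT1 and between 4.05 and 4.55 in WT, below the array medians throughout, and differed by 0.02.

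Pecam1 read 5.90, 5.83, 6.26, 5.97 and 6.57 in the Sca1-MALT1 arrays, and 6.15, 6.29 and 5.87 in the WT arrays. The groups overlapped fully and 7 of the 8 arrays were below their own median. Pecam1 differed by 0.00 on the log2 scale (SE 0.19, limma adjusted p = 0.999, exact permutation p = 0.982), with a 95% interval of -0.44 to 0.44, and its sign changed with the arrays used. Of the 10 genes it was the only one whose mean was not lower in Sca1-MALT1.

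Tie1 encodes an orphan receptor kinase that modulates angiopoietin signalling through TEK. It read 5.07, 6.39, 5.69, 6.20 and 7.94 in the Sca1-MALT1 arrays, and 6.87, 6.89 and 6.20 in the WT arrays. Sca1-MALT1 5 was the highest of all 8 arrays and Sca1-MALT1 1 the lowest. The log2 difference was -0.39 (SE 0.56, 95% interval -1.69 to 0.90, limma adjusted p = 0.857, exact permutation p = 0.589). With 1 array left out it lay between -0.81 (without Sca1-MALT1 5) and -0.10 (without Sca1-MALT1 1).

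Stab2 encodes stabilin-2, a scavenger receptor for hyaluronan that marks sinusoidal endothelium. It read 8.78, 9.87, 8.82, 8.74 and 7.25 in the Sca1-MALT1 arrays, and 8.86, 12.19 and 11.30 in the WT arrays. WT 2 and WT 3 stood above all others, while WT 1 lay among the Sca1-MALT1 arrays. The log2 difference was the largest in size of the 10 genes, -2.09 (SE 0.78, 4.26-fold lower), and did not pass (limma adjusted p = 0.412, exact permutation p = 0.0357). It was -3.05 without WT 1 and -1.39 without WT 2.

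Egfl7 encodes a secreted protein of the vessel matrix that acts on Notch signalling and integrins. Its brightest probe set read 7.01, 9.05, 7.67, 8.24 and 9.30 in the Sca1-MALT1 arrays, and 11, 10.56 and 8.77 in the WT arrays. WT 3 lay below Sca1-MALT1 2 and 5, so the groups overlapped. For that probe set the log2 difference was -1.85 (SE 0.64, 3.61-fold lower, limma adjusted p = 0.383, exact permutation p = 0.0714). The 3 further probe sets differed by -1.72, -1.10 and -0.55, and only in the last were the groups apart (6.67 to 7.12 in Sca1-MALT1, 7.22 to 7.75 in WT). All 4 Egfl7 probe sets were lowest in Sca1-MALT1 1 and highest in WT 1.

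Robo4 encodes an endothelial receptor of the Roundabout family that steadies the vessel barrier. It read 6.72, 7.20, 6.36, 6.81 and 7.92 in the Sca1-MALT1 arrays, and 7.69, 8.11 and 7.19 in the WT arrays. Sca1-MALT1 5 was the second highest of all 8 arrays, and Sca1-MALT1 2 also stood above WT 3. Robo4 differed by -0.67 on the log2 scale (SE 0.35, 1.59-fold lower, 95% interval -1.47 to 0.14, limma adjusted p = 0.568, exact permutation p = 0.179), and by -0.44 without WT 2.

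**Figure D2:**
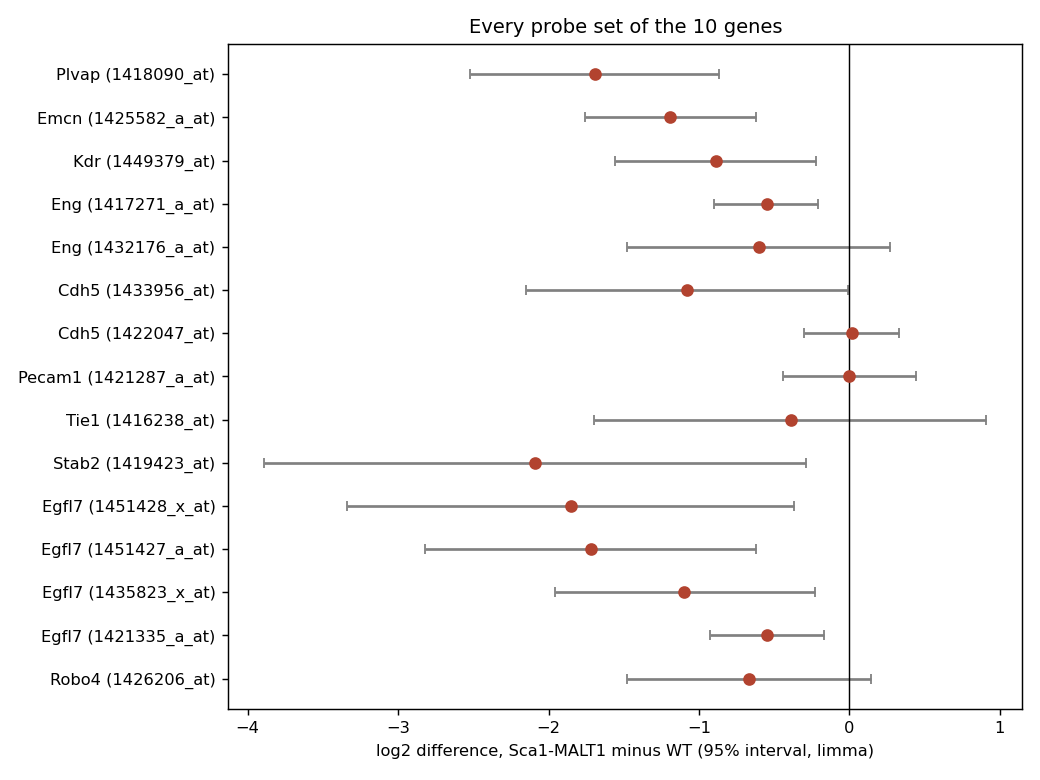
Log2 difference (Sca1-MALT1 minus WT, x axis) of all 15 probe sets of the 10 genes, with 95% intervals from limma. Of the 15, 13 lie below 0, and the 2 at or just above 0 are the Pecam1 probe set and the dimmer Cdh5 probe set.

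Across all 15 probe sets, 13 differences were below 0, against 51.6% of the 45037 probe sets. None of the 15 passed over all probe sets, where 0.06% passed. At an unadjusted p under 0.05, 10 of the 15 were lower (4.48% of all probe sets), and in 5 the groups were apart with Sca1-MALT1 lower (3.15% of all probe sets). Probe sets of 1 gene share its transcripts and are not independent.

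The order of the arrays was shared by the genes in part and differed in part, so the 10 genes are not independent observations. Among the WT arrays, replicate 2 was the highest in 9 of the 10 genes, the exception being Egfl7, and replicate 3 the lowest in 7. Among the Sca1-MALT1 arrays, replicate 5 was the highest in 7 genes (Emcn, Kdr, Eng, Pecam1, Tie1, Egfl7 and Robo4) but the lowest in Stab2. Replicate 2 was the lowest in Plvap, Kdr, Cdh5 and Pecam1 and the highest in Stab2. The mean signal of the 10 genes was 6.73, 7.12, 6.94, 7.00 and 7.39 in the Sca1-MALT1 arrays, and 7.89, 8.68 and 7.65 in the WT arrays. Their median pooled within-group SD was 0.56, against 0.24 over all genes.

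**Figure D3:**
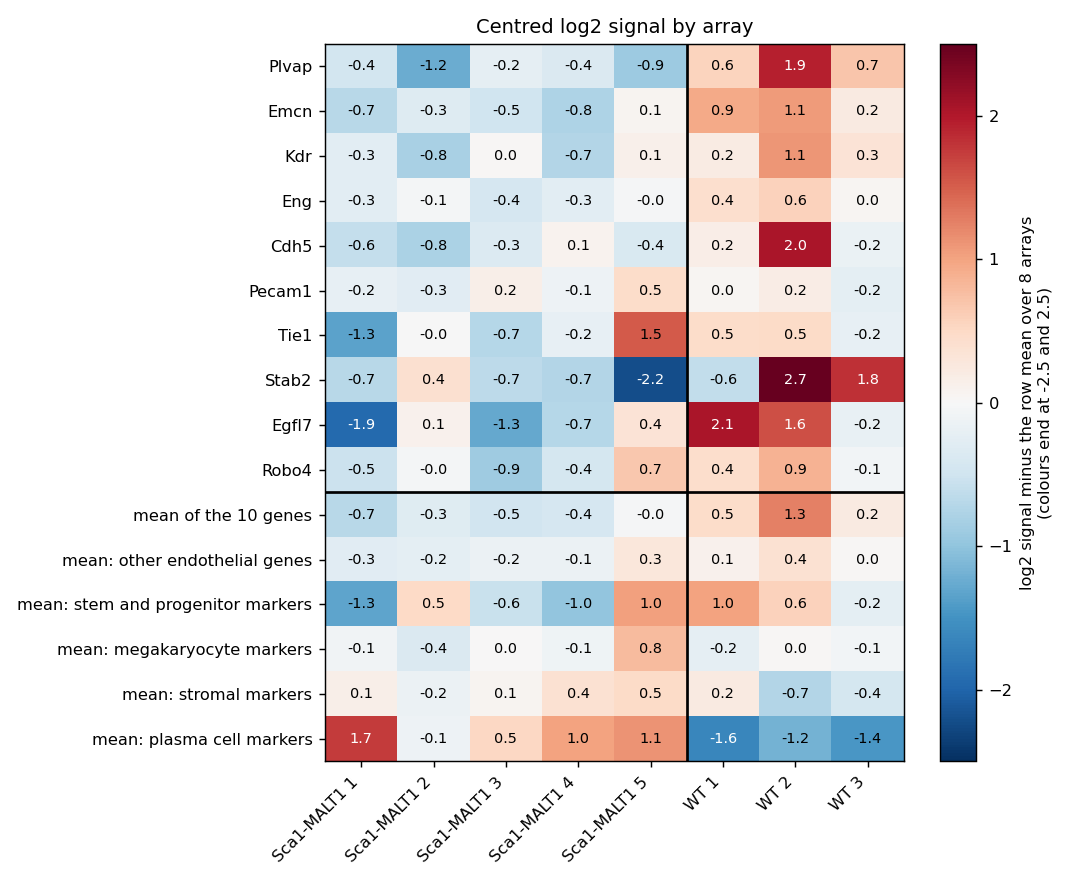
Log2 signal minus the row's mean over the 8 arrays, with the Sca1-MALT1 arrays left of the line and the WT arrays right of it. The rows are the 10 genes, their mean, and the means of 5 gene lists. WT 2 is the highest WT array in 9 genes, Sca1-MALT1 5 is high in Tie1 and Robo4 and lowest in Stab2, and the stem and progenitor row is high in Sca1-MALT1 5 and WT 1.

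With WT 2 left out, the median log2 difference of the 10 genes was -0.52 in place of -0.98, and 9 of the 10 still had a difference below 0. The difference of Plvap was then -1.26, that of Kdr -0.61 and that of Eng -0.43. Across the 8 fits that each left out 1 array, the median lay between -1.22 and -0.52, and no member passed in any of them.

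**Figure D4:**
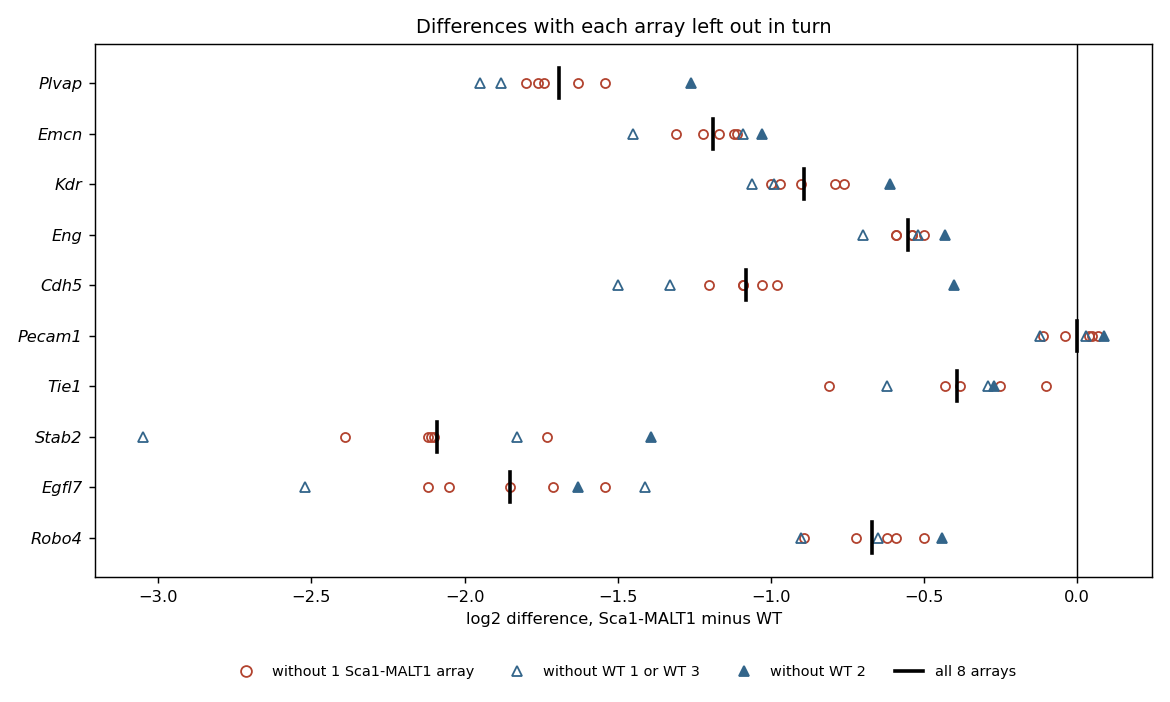
Log2 difference (Sca1-MALT1 minus WT) of each of the 10 genes with all 8 arrays (black bars) and with each array left out in turn. Circles leave out a Sca1-MALT1 array and triangles a WT array, filled for WT 2. Without WT 2 the difference of Cdh5 is -0.40 and that of Stab2 is -1.39, and Pecam1 lies on both sides of 0.

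Markers of other cells that the sorted fraction can hold are given beside these genes. The mean of 17 stem and progenitor markers was 7.87, 9.69, 8.63, 8.21 and 10.22 in the Sca1-MALT1 arrays, and 10.21, 9.78 and 8.95 in the WT arrays. Of these 17, 15 had a lower mean in Sca1-MALT1 (median -0.59), against 49.3% of all genes. Of the 17, 4 were lower at an unadjusted p under 0.05 (4.49% of all genes) and none passed the threshold. The lowest array of this list, Sca1-MALT1 1, was also the lowest for Egfl7 and Tie1. Its highest array, Sca1-MALT1 5, was the highest Sca1-MALT1 array for 7 of the 10 genes but the lowest for Stab2. Other ranks differed, since Sca1-MALT1 2, at 9.69 in this list, was the lowest Sca1-MALT1 array for Plvap, Kdr, Cdh5 and Pecam1. The highest WT array of this list was WT 1, while WT 2 was the highest WT array for 9 of the 10 genes. The stem cell genes named by lowest p were Flt3 at -1.59, Hlf at -1.33, Cd34, which endothelium also expresses, at -2.15, and Hoxa9 at -1.82 (limma adjusted p of 0.377 to 0.481). Esam and Tek stand both in this list and among the further endothelial genes. The part of these markers in the endothelial differences was not tested.

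Megakaryocyte markers, of the platelet-forming cells that share Vwf and Pecam1 with endothelium, had a median of -0.01 over 15 genes. Their mean lay between 7.52 and 8.67 in Sca1-MALT1 and between 7.66 and 7.91 in WT. Rab27b, Selp, Pf4 and Nfe2 stood at 1.51, 0.88, -0.61 and -0.56. Of the stromal markers, 13 of 16 were higher, with a median of 0.40, and their mean was lowest in WT 2 (6.44). Igfbp5 stood at 2.32, Dcn at 1.33, Kitl at 1.80 and Postn at -1.73, none past the threshold. Plasma cell markers were all higher (10 of 10, median 2.36), and 1 of them, Jchain at 2.58, passed the threshold, which 0.044% of all genes passed higher. Xbp1 at 1.32, Edem1 at 2.82 and Derl3 at 2.88 did not pass, and the list's mean was 10.19 to 12.05 in Sca1-MALT1 and 8.68 to 9.12 in WT. B lineage markers were all lower (9 of 9, median -1.16), and 3 passed (Igll1, Vpreb1 and Rag1), against 0.044% of all genes lower. Pax5 at -1.16 did not pass, and the list's mean was 7.54 to 8.66 in Sca1-MALT1 and 10.04 to 10.79 in WT. The part of these lists in the endothelial values was not tested.

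Of the remaining lists, T cell markers had a median of 0.68, with 7 of 8 higher, and the genes of lowest p were Zap70 at 0.80, Cd28 at 1.69, Cd6 at 0.93 and Cd3e at 0.77. Erythroid markers had a median of 0.78, with 7 of 7 higher, and Car1 at 2.45, Gata1 at 0.94, Rhag at 1.03 and Epor at 0.63. Neutrophil markers had a median of -0.84, with 9 of 10 lower, and the differences were -1.30 for S100a9, -0.81 for S100a8, -1.27 for Csf3r and -1.19 for Ltf. Monocyte and macrophage markers had a median of -0.58, with 7 of 9 lower and 2 higher; Csf1r stood at -1.69, Lyz2 at -1.33, Mrc1 at -0.75 and Ctss, in the other direction, at 0.52. None of these genes passed. RNA quality was read from control probe sets as the 3′ log2 signal less the 5′ one. For Gapdh it was 2.25 to 3.20 in Sca1-MALT1 and 2.70 to 2.92 in WT, and for beta-actin it was 1.25 to 2.49 in Sca1-MALT1 and 1.45 to 2.14 in WT, both highest in Sca1-MALT1 5.

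The 48 further endothelial genes had a median log2 difference of -0.26, with 33 of 48 lower, and none passed. At an unadjusted p under 0.05, 9 were lower (4.49% of all genes) and 2 higher (5.69% of all genes), and in 8 every Sca1-MALT1 array lay below every WT array (2.87% of all genes). Cd93, a C-type lectin receptor of endothelium and early blood progenitors, read 10.14, 10.12, 9.69, 9.72 and 9.34 in the Sca1-MALT1 arrays and 11.71, 10.75 and 10.51 in the WT arrays. Its log2 difference was -1.18 (SE 0.29, 2.27-fold lower, limma adjusted p = 0.271). Stab1, the relative of Stab2 that macrophages also carry, stood at -1.05, Ushbp1 at -0.55 and Aplnr, the apelin receptor, at -0.47, all with groups apart, limma adjusted p of 0.298 to 0.316 and a Sca1-MALT1 mean below the array medians.

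**Figure D5:**
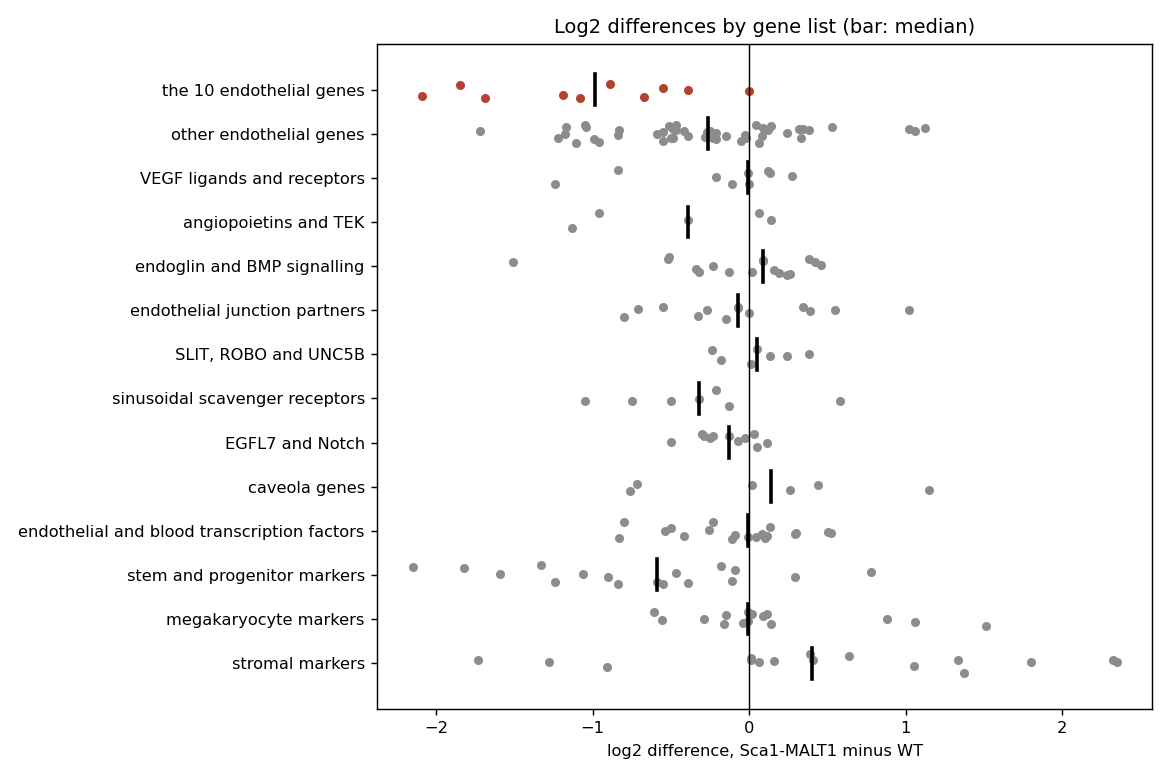
Log2 difference (Sca1-MALT1 minus WT, x axis) of each gene in 14 lists, with the 10 endothelial genes in red at the top and a black bar at each list's median. The median is -0.98 for the 10 genes, -0.26 for the 48 further endothelial genes, -0.59 for stem and progenitor markers and 0.40 for stromal markers.

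Genes that work with the 10 were described by small lists, some of whose genes are also among the 48, and none of their members passed. Among VEGF ligands and receptors, the partners of Kdr, 5 of 9 were lower with a median of -0.01. Flt4, the receptor of VEGF-C, read 7.42, 6.81, 7.48, 6.95 and 7.00 in the Sca1-MALT1 arrays and 7.69, 8.66 and 7.56 in the WT arrays, with the groups apart and WT 2 highest as for Kdr. Its difference was -0.84 (SE 0.28, limma adjusted p = 0.377). The ligand Vegfc stood at -1.24 (SE 0.75) with overlapping groups, and Sca1-MALT1 2 was the highest of all 8 arrays at 9.36. Flt1 stood at -0.21 and Pgf at 0.13, both below the array's own median in 7 of the 8 arrays. Of the angiopoietins and TEK, the partners of Tie1, 3 of 5 were lower with a median of -0.39. Ptprb, the endothelial phosphatase that acts on TEK, stood at -0.96 with the groups apart. Angpt1 stood at -1.13 (SE 0.84) and Tek at -0.39 (SE 0.65), both with overlapping groups. For both genes Sca1-MALT1 5 was the highest of all 8 arrays, at 11.33 for Angpt1 and 7.72 for Tek. Angpt4 stood at 0.14. Tek was below the array's own median in 6 of the 8 arrays and Angpt4 in 7.

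In the endoglin and BMP list 7 of 17 were lower, with a median of 0.09. Id3, a BMP target that inhibits basic helix-loop-helix factors, read 6.92, 6.04, 7.81, 5.83 and 8.06 in the Sca1-MALT1 arrays and 8.41, 8.23 and 8.69 in the WT arrays, a difference of -1.51 (SE 0.52, 2.85-fold lower, limma adjusted p = 0.383). Tgfb1 stood at -0.32, Smad5 at -0.52 and Smad4 at -0.23. Junction partners of Cdh5 and Pecam1 had a median of -0.07 over 13 genes. Cd99 stood at -0.80 with the groups apart. Jam3 at -0.71, Jam2 at 1.02 (SE 0.61) and Cd99l2 at 0.39 had overlapping groups. Jam2 read 9.24 in Sca1-MALT1 5, against 6.05 to 7.34 in the other Sca1-MALT1 arrays. The family of Robo4 had a median of 0.05 over 7 genes. In Robo1 the groups were apart with Sca1-MALT1 higher, as in 4.27% of all genes, at 0.38 (limma adjusted p = 0.428). Unc5b stood at 0.24, Robo2 at -0.18 and Robo3 at -0.24. Robo1, Robo2 and Robo3 were below the array's own median in all 8 arrays, so their signals may be background.

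The sinusoidal scavenger receptors listed with Stab2 had a median of -0.32, with 6 of 7 lower. Lyve1 stood at -0.21, with group means of 4.73 in Sca1-MALT1 and 4.94 in WT that were both below the array medians, Hyal2 at -0.32 and Mrc1, which macrophages share, at -0.75. In the Notch list of Egfl7, 8 of 11 were lower with a median of -0.13. Notch1 stood at -0.50, Dll4 at -0.25, Notch4 at -0.30 and Jag2 at -0.29, with Dll4 and Notch4 below the array's own median in all 8 arrays. Caveola genes had a median of 0.14 over 6 measured genes, with Cav2 at -0.76, Cavin3 at -0.72 and Cavin2 at 1.15 (SE 0.84). In each of these the groups overlapped and Sca1-MALT1 5 was the highest of all 8 arrays. Cavin2 read 10.71 there, against 6.42 to 8.67 in the other Sca1-MALT1 arrays. Cav1, below the array's own median in 7 of the 8 arrays, stood at 0.26. Transcription factors of endothelium and blood had a median of -0.01 over 19 genes, with the ETS factor Fli1 at 0.50, Sox18 at -0.42 and Hhex at -0.80. Sox17, below the array's own median in all 8 arrays, stood at -0.23.

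The profile of the 10 genes over the 8 arrays was set against all other genes by the root mean square difference, after each gene was centred on its own mean. The nearest was Hspb11, an intraflagellar transport protein, at 0.209 log2 units, where the mean profile itself spans 1.96 log2 units. Rasl10a followed at 0.214, Eva1b at 0.225, Chga at 0.236 and Cwf19l1 at 0.244. By the same measure Emcn was the member closest to the mean profile, at 0.223, and Stab2 the farthest, at 1.19. Rasl10a and Chga were below the array median in all 8 arrays, and the distances describe these arrays only.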

How the data were processed

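Sca1+Lin- cells were sorted from bone marrow (5 Sca1-MALT1 samples, 3 WT samples), and their amplified RNA was measured on 1-colour Affymetrix arrays. The authors deposited log2 values from RMA, per the submitters' processing notes. Neither an RMA version nor the set of arrays normalized together is given in the sources used here. The values ran from 2.73 to 15.41, a log2 range, and were analysed as deposited with no dim filter. The table held 45101 probe sets, 64 of them controls; the platform annotation gave 1 gene symbol to 34945 probe sets and several to 932, and did not list 9160. Symbols were updated by Entrez identifier through RefSeq (GRCm38.p6). Each of 18193 genes was represented by its brightest probe set, by the mean over 8 arrays.

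The genotypes were compared with limma 3.58.1 (lmFit, eBayes; R 4.3.3) on all 8 arrays with no other term. P-values are two-sided and Benjamini-Hochberg adjusted over all genes, or over the 45037 probe sets where stated, with a threshold of 0.05. The fit was also run on simulated data with noise drawn independently for each gene. Shifts of an array shared by many genes were not simulated, and no result here rests on that run. Errors are SE of the fit or SD between arrays, and the number of arrays limits the precision. Promoter windows are RefSeq's. The 10 genes, the lists, the tests and the alternatives were chosen with earlier results of these data known. Named are the 10 genes, up to 4 genes of each list with the lowest unadjusted p, list genes past the threshold and the 5 genes nearest the mean profile; Malt1 and the genes of the closing observations fall outside this rule. Alternatives were quantile normalization, median centring, filters on dim genes, testing every probe set or averaging them per gene, an intensity trend with robust variance, array weights, other thresholds, a replicate block, a term for Xist, and each array left out.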

Additional observations from a re-analysis of the deposited data

Results flagged for a closer look

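None of the 15 probe sets of the 10 endothelial genes had a Sca1-MALT1 array far from the other four by Dixon's test at its 95% level, and the 3 WT arrays are too few for it. Of 35 values examined (15 probe sets and the means of 20 gene lists), 4 list means did, where chance flags about 1 in 20. Several lists share genes and all rest on the same arrays. The 35 values are therefore not independent, and the number flagged cannot be set against that rate. Sca1-MALT1 replicate 5 had a mean of 7.32 over the 48 further endothelial genes, against 6.76 to 6.89 in the other Sca1-MALT1 arrays. The same array had a mean of 7.96 over the caveola genes, against 6.14 to 6.59, and of 9.78 over the endothelial and blood transcription factors, against 8.98 to 9.21. Sca1-MALT1 replicate 4 had a mean of 8.43 over the T cell markers, against 9.29 to 9.58 in the others.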

How the results depend on the processing

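No member and none of the 48 further endothelial genes passed the threshold under any alternative run, including an adjusted p of 0.1. The other 9 genes kept a difference below 0 under every alternative in which they were tested. Of 174 member values under the alternatives, 5 had the opposite sign, all of Pecam1: -0.05 with array weights, -0.11 with the replicate block, and between -0.12 and 0.09 over the fits that left out 1 array. With only genes above the median signal, 5 of the 10 were tested, all 5 lower, with a median of -1.69, and the further endothelial genes had a median of -0.83; fewer genes tested, those of higher signal, is the construction of that filter. The median of the 10 lay between -1.22 and -0.52 with 1 array left out (-0.52 without WT 2), and that of the further genes between -0.33 and -0.17. The number of all genes past the threshold was 16, and became 38 at an adjusted p of 0.1, 8 at 0.01, 28 with array weights, 29 with a term for Xist (above a log2 signal of 9 in 2 Sca1-MALT1 arrays and in no WT array), and 8 to 38 with 1 array left out; the cause was not tested. With 2 residual degrees of freedom, limma's fit with the replicate block called 0 genes (2034 at an unadjusted p under 0.05), with a median of -1.09 over the 10 and all 10 lower. Same-numbered arrays deviated from their group means at r of -0.22, -0.04 and 0.01, and arrays of different number at -0.24 to 0.22. With so few arrays, these values cannot tell whether same-numbered samples were prepared together, and the labels do not say. With the term for Xist the difference of Kdr was -0.59 in place of -0.89, its smallest in size under any alternative. Those of Plvap, Emcn and Eng were then -1.58, -1.12 and -0.58. Dim signals limit Emcn, Cdh5, Pecam1 and Tie1.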

Other observations

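In Sca1-MALT1 replicate 5, part of the further endothelial genes stood high while others did not. The genes here were chosen after their values were seen. Of the 48, replicate 5 was the highest Sca1-MALT1 array in 16 and above all WT arrays in 14. In 9 it exceeded the mean of the other 4 Sca1-MALT1 arrays by over 1 log2 unit. The same counts were not made over all genes, so they do not set the 48 apart from other genes in this array. Vwf, the platelet-binding factor stored by endothelium and megakaryocytes, read 10.65 in replicate 5, 5.50 to 8.11 in the other 4 and 5.50 to 7.77 in WT. The tight junction gene Cldn5 read 11.62 there, 8.00 to 8.97 in the other 4 and 8.04 to 9.46 in WT. Tek, the angiopoietin receptor, read 7.72, against 4.54 to 5.85 in the other 4 and 5.43 to 6.49 in WT. Ramp2, a part of the adrenomedullin receptor, read 9.02, against 5.82 to 6.90 in the other 4 and 6.22 to 7.04 in WT. In the same array Stab2 was the lowest of all 8 at 7.25, and Plvap read 6.62, below all WT arrays. The mean of the megakaryocyte markers, which include Vwf, was 8.67 there. It was 7.52 to 7.89 in the other 4 Sca1-MALT1 arrays and 7.66 to 7.91 in WT. That of the stem and progenitor markers, which include Tek and Esam, was 10.22, against 7.87 to 9.69 in the other 4 and 8.95 to 10.21 in WT. Since these lists share genes with the 48, their means are not separate from the values above. This array also had the highest 3′ less 5′ control values, 3.20 for Gapdh and 2.49 for beta-actin. These are values of 1 array.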
